A study of Mus musculus with 6 samples.

Results

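The 10 genes described here are known from the fat cell, though not all from it alone. Adipoq, Lep, Retn and Cfd are secreted proteins, and Plin1, Plin4, Cidec and Fabp4 are lipid droplet and fatty acid binding proteins. Ucp1 and Cidea are known from brown fat. These 10 of the 46983 genes in the expression table were matched by gene symbol. They were chosen on values of these same libraries, namely a higher level at 4 months than at postnatal day 2 (PND2) and a highest value in 4 month replicate 2, so their age difference and their replicate 2 excess are given as a description without a test. The libraries were made from aortic valves of wild type C57BL/6J mice at PND2 and at 4 months, with 3 libraries per age and the valves of 5 to 6 animals pooled for each. Each value is therefore that of a pool, and the bulk tissue was dissected to hold little myocardium. Library totals were 38994657, 30518001 and 29260736 at PND2 and 37350916, 23810507 and 28943701 at 4 months, so 4 month replicate 2 was the shallowest library. Levels are given as RPKM, reads on a gene scaled by its exonic length and by the library total.

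White adipocytes store triglyceride in a single large droplet coated by perilipins and release hormones such as adiponectin and leptin. Brown adipocytes hold many small droplets and burn fat to heat through Ucp1, an uncoupling protein of the inner mitochondrial membrane. Both kinds of cell depend on the nuclear receptor Pparg and on C/EBP factors, and fat is a normal neighbour of the aortic root.

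The data divided the 10 genes into 4 patterns. Adipoq, Lep, Retn, Cfd, Plin1 and Cidec were at or near 0 at PND2 and highest in 4 month replicate 2. Plin4 was well above 0 at PND2, higher at 4 months and even over the 4 month libraries. Fabp4 and Cidea were present at both ages with overlapping values. Ucp1 was near 0 at PND2 but highest in 4 month replicate 3. The ages did not overlap for 8 of the 10 genes, all higher at 4 months, a direction that the choice of genes used. Of 25903 genes that passed a filter on low values, 20.0% had all 4 month libraries above all PND2 libraries. For Ucp1 the lack of overlap rests on 5 reads in 4 month replicate 1 against 3 in PND2 replicate 3. Fabp4 had no direction with age, and Cidea had a higher mean at 4 months with overlapping libraries. Replicate 2 was not the highest 4 month library for Ucp1, nor for Plin4, where replicate 1 was level with it. In bulk tissue, fewer cells of a type and less RNA per cell cannot be told apart.

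**Figure D1:**
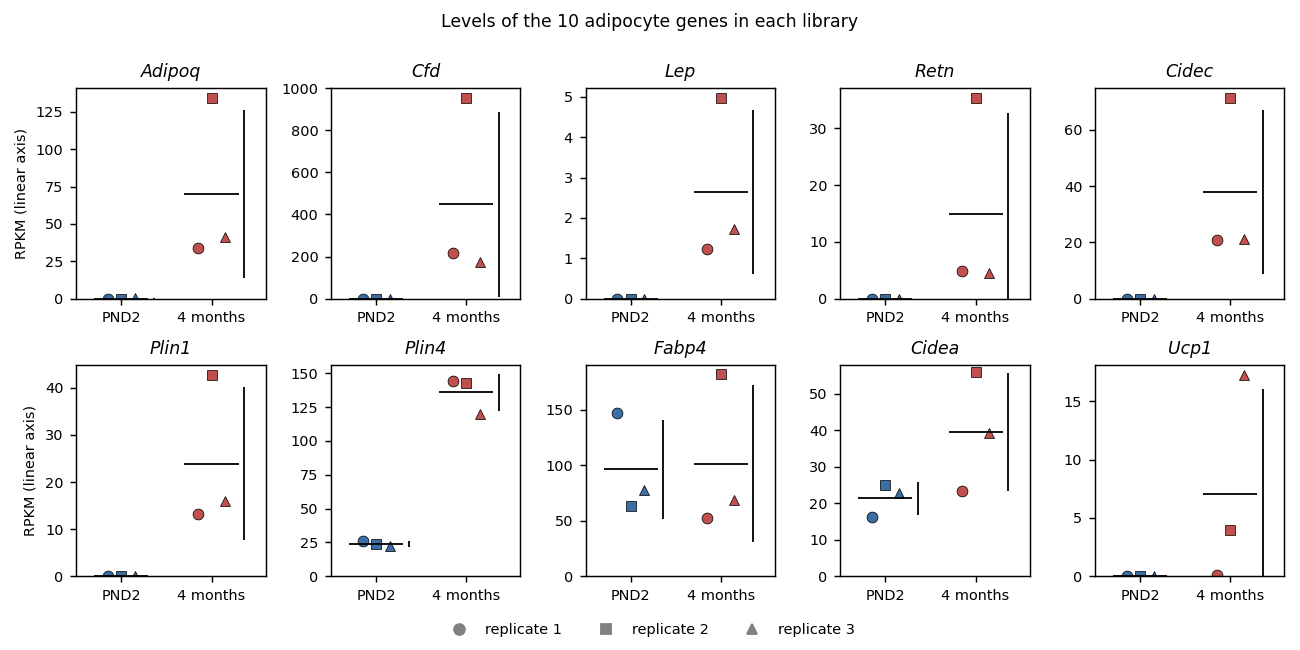
RPKM of each of the 10 genes (linear vertical axes starting at 0, a separate scale per gene) in the 3 PND2 libraries (blue) and the 3 libraries of 4 months (red), with the mean as a horizontal line and 1 SD to either side as a vertical line that stops at 0. Adipoq, Cfd, Lep, Retn, Cidec and Plin1 have 1 high library at 4 months, replicate 2, whereas Ucp1 is highest in replicate 3 and the ages overlap for Fabp4 and Cidea.

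Promoter sequence is shown because the C/EBP factors are known regulators of fat cell genes. It was taken from the reference genome and is the same for every library, so it cannot address a difference between libraries. The part of these sequences in the shared highest library of the first pattern, which the choice of genes used, was not tested. RefSeq start sites (GRCm38.p6) gave 9 windows for 8 of the genes, each of 250 bases before and 50 bases from the start on, and none was used for Fabp4 and Cidea. The C/EBP palindrome TTGCGCAA was in 1 of these windows, that of Lep, and in 60 of all 32851 windows (0.183%). The looser form TTNNGCAA, searched on both strands and including the palindrome, was in the windows of Lep, Cidec and Plin1 and in 10.8% of all windows. The stretches that hold it are printed 5′ to 3′ on the gene's strand, with the match in capitals (on the opposite strand in Cidec and Plin1, and on both strands in Lep). They lie at chr6:29060140-29060199 on the plus strand for Lep, and on the minus strand at chr6:113434929-113434988 for Cidec, chr7:79732930-79732989 for the distal and chr7:79732801-79732860 for the proximal Plin1 stretch.
Lep: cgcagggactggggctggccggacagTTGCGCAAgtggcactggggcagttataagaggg
Cidec: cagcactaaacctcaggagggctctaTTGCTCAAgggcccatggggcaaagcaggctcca
Plin1 distal: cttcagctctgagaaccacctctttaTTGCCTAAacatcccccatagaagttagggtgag
Plin1 proximal: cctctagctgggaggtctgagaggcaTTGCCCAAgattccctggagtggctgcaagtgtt
The match begins 55 bases before the start site in Lep, 198 in Cidec, and 187 and 58 in Plin1. The peroxisome proliferator response element DR1, which is 2 copies of AGGTCA with 1 base of any kind between them, was in 0 of the 9 windows on either strand and in 13 of all windows (0.0396%). With 1 mismatch allowed it was again in 0 of 9, against 0.554% of all windows. TATAAA was in 0 of 9 and in 13.6% of all windows. A match is a run of letters and not a site, and these windows do not cover enhancers.

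Among the secreted proteins, Adipoq (adiponectin, chromosome 16 of mm10 from 23146536 to 23158028) was at 0.0743, 0.0475 and 0.198 RPKM at PND2 and at 34.2, 134 and 41.2 RPKM at 4 months. Its PND2 values rest on 4, 2 and 8 reads, against 1763, 4422 and 1647 reads at 4 months. The ages did not overlap, and 4 month replicate 2 stood 3.57-fold above the mean of the other libraries of its age. The means were 0.107 ± 0.0803 and 70.0 ± 56.0 RPKM (SD, n = 3), a ratio of 656, which was 354 without 4 month replicate 2 and 1149 without PND2 replicate 3.

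Cfd (adipsin, complement factor D, the protease that starts the alternative complement cascade, chromosome 10 from 79890853 to 79892656) was at 217, 955 and 172 RPKM at 4 months. By whole-gene RPKM its mean of 448 was the highest of the 10 genes. Without its exon that runs through introns (described below), Fabp4 had a 4 month mean of 461 RPKM and was above Cfd in replicates 1 and 3. At PND2 only 1 read of Cfd was counted over the 3 libraries. Pooled over the libraries of each age, its reads per library total were 36261-fold higher at 4 months (95% exact Poisson interval 6508 to 1432243, which covers counting error only). The ratio was 18025 without 4 month replicate 2 and 21946 without PND2 replicate 1, and without PND2 replicate 2 no PND2 read was left. Replicate 2 was 4.90-fold above the mean of replicates 1 and 3.

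Retn (resistin, chromosome 8 from 3655770 to 3660110) was listed at 0 in every PND2 library and at 4.83, 35.4 and 4.44 RPKM at 4 months. Against a floor of 3 reads per PND2 library its 4 month mean stood at least 254-fold higher, and 79.1-fold or more when replicate 2 was left out. Of the 10 genes it had the largest replicate 2 excess, 7.64-fold. Lep (leptin, the satiety hormone, chromosome 6 from 29060220 to 29073877) was also listed at 0 at PND2 and stood at 1.23, 4.98 and 1.73 RPKM at 4 months, from 154, 398 and 168 reads. Its 4 month mean exceeded the same floor by at least 95.9-fold, and by 53.6-fold or more when replicate 2 was left out. Lep was the gene with the lowest mean of the 10 at 4 months.

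Plin1 (perilipin 1, the droplet coat that gates lipolysis, chromosome 7 from 79720218 to 79732903) was at 0.0607, 0.00705 and 0.0294 RPKM at PND2 and at 13.1, 42.7 and 15.9 RPKM at 4 months. The ratio of means was 739, which was 449 without 4 month replicate 2 and 1313 without PND2 replicate 1. Cidec (a protein that fuses droplets into large ones, chromosome 6 from 113424634 to 113435760) was listed at 0 in all 3 PND2 libraries and at 20.9, 71.5 and 21.4 RPKM at 4 months. The 4 month mean exceeded the floor by at least 760.0-fold, and by 424-fold or more when replicate 2 was left out. Replicate 2 exceeded the mean of replicates 1 and 3 by 2.94-fold for Plin1 and 3.38-fold for Cidec, whereas replicates 1 and 3 were close to each other for both.

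Plin4 (perilipin 4, found on small droplets of fat and striated muscle, chromosome 17 from 56100591 to 56109803) differed in both respects. It was at 26.3, 23.7 and 22.1 RPKM at PND2 and at 145, 143 and 120 RPKM at 4 months, a 5.65-fold ratio of means. The ages did not overlap, and the 4 month libraries varied by a CV of 10.1%, against 68.3% to 119% for the 6 genes of the first pattern. It shares 6 bases with Hdgfrp2 on the opposite strand, which stood at 46.7 to 72.9 RPKM over the 6 libraries.

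Fabp4 (fatty acid binding protein of adipocytes, which capillary endothelium and macrophages are also known to make, chromosome 3 from 10204088 to 10208576) was at 147, 63.7 and 77.9 RPKM at PND2 and at 52.5, 183 and 69.1 RPKM at 4 months. The ages overlapped, with means of 96.3 ± 44.7 and 101 ± 70.9 RPKM (SD, n = 3). The ratio of means was 1.05, and became 0.632 when 4 month replicate 2 was left out and 1.43 when PND2 replicate 1 was. It was also below 1 without PND2 replicate 2 (0.901) or replicate 3 (0.962), and the difference on the log2(RPKM + 0.1) scale was -0.05, so no direction is given. Replicate 2 was nonetheless 3.01-fold above the other libraries at 4 months, as for Plin1. The annotated exonic length of 4489 bases includes an exon of 4231 bases that runs through the introns of the others, which lowers the RPKM of the gene. Over the other 4 exons alone (896 bases) the levels were 684, 285 and 343 RPKM at PND2 and 241, 829 and 313 RPKM at 4 months, in the same library order.

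Beside Fabp4 at PND2, the endothelial list (Pecam1, Cdh5, Tek, Tie1, Kdr, Emcn and Vwf, 7 of 7 detected) summed to 531, 404 and 557 RPKM at PND2 and to 237, 247 and 226 RPKM at 4 months, with Pecam1 the most abundant. All 7 were lower at 4 months in the limma test described below, 5 of 7 without 4 month replicate 2 and 4 of 7 by an unequal-variance test per gene, where 21.1%, 16.5% and 7.50% of all genes tested were lower. The macrophage list of 7 genes, led by Lyz2, summed to 212, 195 and 199 RPKM at PND2 and to 782, 779 and 725 RPKM at 4 months, with 6 of 7 higher, or 4 by the test per gene, where 14.7% and 5.66% of all genes tested were higher. The part of either cell type in the Fabp4 level was not tested.

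Cidea (a droplet protein of brown fat, chromosome 18 from 67343564 to 67367794) was at 16.2, 25.1 and 22.8 RPKM at PND2 and at 23.5, 55.9 and 39.3 RPKM at 4 months. Replicate 1 of 4 months lay within the PND2 range, so the ages overlapped, with a ratio of means of 1.85. An antisense gene, B430212C06Rik, shares 540 bases with it, and strand use in the counting is not given in the sources used here. That gene stood at 0.520 to 1.72 RPKM, and all 5 exons of Cidea carried reads at both ages.

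Ucp1 (chromosome 8 from 83290348 to 83298456) was at 0.0156, 0 and 0.0624 RPKM at PND2, from 1, 0 and 3 reads. At 4 months it was at 0.0814, 3.93 and 17.3 RPKM, from 5, 154 and 821 reads. Replicate 3 was highest, 4.39-fold above replicate 2 and 212-fold above replicate 1, whose value rests on 5 reads. Pooled over libraries, reads per library total were 269-fold higher at 4 months (95% exact Poisson interval 105 to 986). Without 4 month replicate 3 the ratio was 64.2 (25.1 to 236), without 4 month replicate 1 it was 456, and without PND2 replicate 3, which held 3 of the 4 reads, it was 756. Ucp1 reached 0.1 RPKM in fewer than 3 libraries and was the single gene of the 10 left out by the filter on low values, which the other 9 passed.

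**Figure D2:**
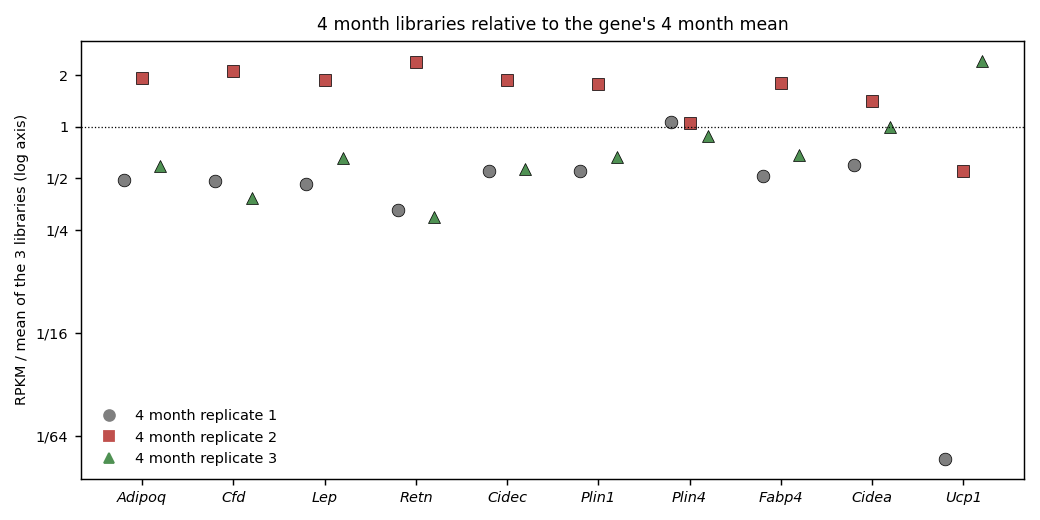
RPKM of each 4 month library divided by the gene's mean over the 3 libraries of 4 months (vertical log axis, no unit) for the 10 genes, with the mean at the dotted line. Replicate 2 (squares) is the highest library for 8 of the genes, Plin4 is nearly level, and Ucp1 runs from replicate 1 at the bottom to replicate 3 at the top.

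For scale, replicate 2 was the highest 4 month library for 28.5% of the 19634 genes with a mean of at least 1 RPKM at 4 months, and at least 2-fold above the mean of replicates 1 and 3 for 1.57% of them. Among the 10 genes these counts were 8 and 7, which the choice of genes used in part. Over all those genes the replicate 2 ratio had a median of 0.960 and lay between 0.629 and 1.47 for the central 90%. The ratio of replicate 3 to replicate 1, which the choice of genes did not use, had a median of 0.951 and a 99th percentile of 2.58. It was 212 for Ucp1, 1.67 for Cidea, and 0.792 to 1.41 for the 6 genes of the first pattern.

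Relative to Adipoq in the same library, Lep, Cidec, Plin1 and Fabp4 varied least over the 4 month libraries. Lep was at 3.60%, 3.71% and 4.20% of the Adipoq RPKM in replicates 1, 2 and 3. Cidec was at 61.1%, 53.2% and 51.9%, Plin1 at 38.4%, 31.8% and 38.7%, and Fabp4 at 154%, 136% and 168%. Cfd was less even, at 636%, 710% and 418%, with its lowest share in replicate 3. Retn departed upward in replicate 2, at 14.1%, 26.3% and 10.8%. Cidea was at 68.8%, 41.6% and 95.4%, lowest in replicate 2. Plin4 fell to 106% of Adipoq in replicate 2 from 423% and 291%. Ucp1 ran from 0.238% through 2.93% to 41.9%.

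By mean RPKM at 4 months the order was Cfd, Plin4, Fabp4, Adipoq, Cidea, Cidec, Plin1, Retn, Ucp1 and Lep. By whole-gene RPKM, Cfd led and Adipoq had rank 4 in each of the 3 libraries. On these values Plin4 and Fabp4 changed places in replicate 2, and so did Cidea and Cidec, so these neighbours in the order do not differ beyond their spread. The place of Fabp4 depends on its annotated length. Over its 4 exons other than the one through introns it was at 241, 829 and 313 RPKM. This was above Plin4 in each 4 month library and above Cfd in replicates 1 and 3. Ucp1 was last in replicates 1 and 2 and had rank 7 in replicate 3.

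The exons with reads in 4 month libraries repeated the library order of the whole gene in all 4 of Adipoq, 3 of Lep, 6 of Ucp1 and 5 each of Cfd, Fabp4 and Cidea. They did so in 18 of 20 for Plin1, 8 of 12 for Cidec, 7 of 12 for Plin4 and 3 of 6 for Retn, where replicates 1 and 3, or 1 and 2 in Plin4, were close to each other in the gene. Replicate 2 was highest in all 5 exons of Cfd, 6 of Retn, 20 of Plin1, 12 of Cidec and 5 each of Fabp4 and Cidea. It was also highest in the 4 exons of Adipoq and the 3 exons of Lep that carried reads in 4 month libraries. In Cfd the replicate 2 ratio was 4.70 to 5.06 over exons and in Adipoq 3.46 to 4.11. In Plin4 replicate 2 was highest in 5 of 12 exons, with a ratio of 0.894 to 1.21, and all 12 were apart between the ages. In Ucp1 all 6 exons were highest in replicate 3. Exons come from the same libraries as the gene values used in the choice, and some annotated exons overlap and share reads. These exon counts are therefore a description, and exons are not replicates.

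**Figure D3:**
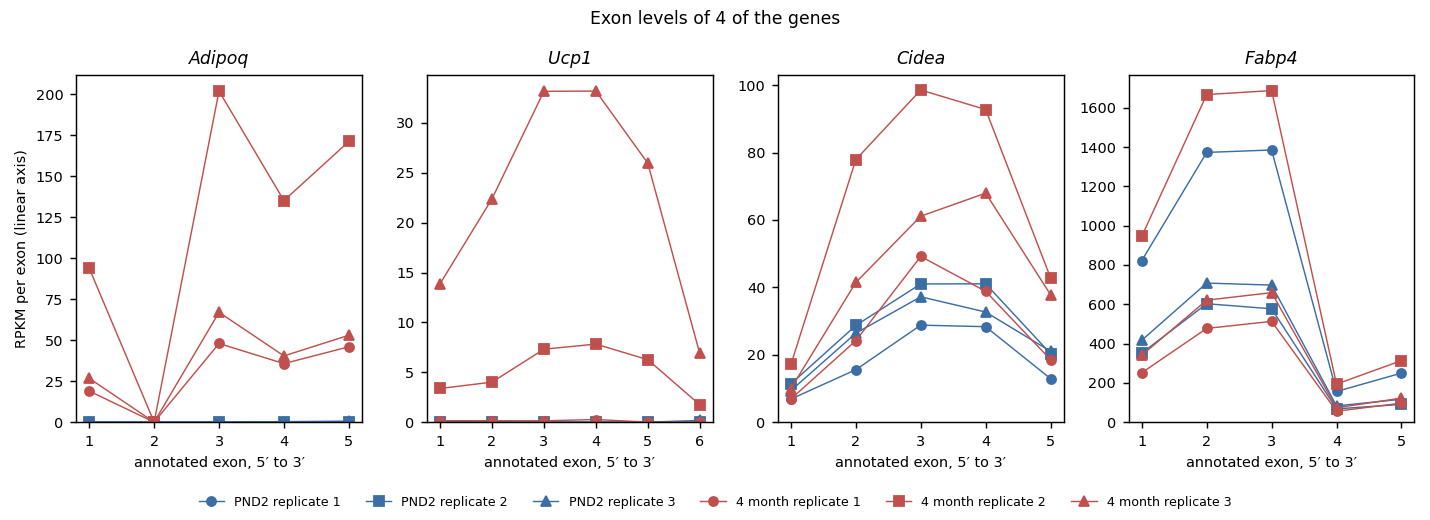
RPKM per annotated exon (linear axes starting at 0), in order from 5′ to 3′, of Adipoq, Ucp1, Cidea and Fabp4 in the 3 PND2 libraries (blue) and the 3 libraries of 4 months (red), with replicates 1, 2 and 3 as circles, squares and triangles. The highest 4 month library is replicate 2 in every exon with reads of Adipoq, Cidea and Fabp4, and replicate 3 in all 6 exons of Ucp1. Exon 4 of Fabp4, which is low, runs through introns.

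Other genes of the fat cell, which the choice of the 10 did not use, were tested for a difference with age by limma on values of log2(RPKM + 0.1), with Benjamini-Hochberg adjustment over the 25903 genes tested. Of all genes tested, 14.7% rose and 21.1% fell at 4 months at an adjusted p under 0.05, the median log2 fold change was -0.14, and in 20.0% all 4 month libraries lay above all PND2 libraries. Scaling the libraries to a common median moved that median to -0.02 and turned the balance, with 17.7% of all genes higher and 16.1% lower. Because of the added 0.1, changes of genes with low RPKM come out too small. The lists were lipid droplet, lipolysis, fatty acid uptake and esterification, lipogenesis, adipogenic transcription factors, insulin and glucose, and other adipokines. These lists were chosen with earlier results of these data known. Together they hold 65 genes, of which 64 were tested, 33 rose, 3 fell and 28 did not pass, with a median log2 fold change of 0.94. All 3 libraries of 4 months lay above all PND2 libraries in 37 of the 65. Without 4 month replicate 2, 29 rose and 4 fell, with a median of 0.71, beside 11.9% and 16.5% of all genes tested. Under median scaling 35 were higher and 1 lower. An unequal-variance test on each gene alone, which does not share an estimate of spread between genes, called 10 higher and 1 lower, beside 5.66% and 7.50% of all genes tested. In that test 0 lipogenesis and 0 lipid droplet genes were called, 1 of lipolysis (Mgll), 2 of fatty acid uptake and esterification, 4 of the transcription factors, 1 of insulin and glucose and 3 of the other adipokines. Of the genes named below, Scd1, Thrsp, Gpd1, Gpihbp1, Lipe, Pnpla2, Adrb3, Fitm2, Plin5, Slc2a4, Tusc5, Insr and Rarres2 lost their call there. Where a list named below has 0 genes called by limma in a direction, limma without adjustment (p under 0.05), voom on the recovered reads and an unequal-variance test per gene also gave 0, except for Schwann cell genes, of which 1 was lower by limma without adjustment and by voom. Without 4 month replicate 2, limma called 1 lipolysis gene (Adora1) and 1 B cell gene (Cd79b) lower.

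Lipogenesis, the making of fatty acids from sugar, had 5 of 10 genes higher and 0 lower, with a median log2 fold change of 1.42, or 0.79 without 4 month replicate 2. Scd1, the stearoyl-CoA desaturase, was at 7.06, 6.90 and 7.64 RPKM at PND2 and at 66.9, 715 and 123 RPKM at 4 months (log2 fold change 4.63, SE 0.76, limma adjusted p = 0.0036). Without 4 month replicate 2 its log2 fold change was 3.64, and its ratio of means went from 41.9 to 13.2. Thrsp, a nuclear regulator of lipid synthesis, was at 0.269, 0.599 and 0.640 RPKM and then at 16.4, 96.5 and 21.3 RPKM (log2 fold change 5.82, SE 0.65, limma adjusted p = 0.00075), with a log2 fold change of 5.03 without 4 month replicate 2. Fasn, the fatty acid synthase, did not pass, at 18.0, 30.6 and 28.3 RPKM against 32.7, 226 and 44.5 RPKM (limma adjusted p = 0.13). Replicate 2 was the highest 4 month library in 9 of the 10 genes and at least 2-fold above the others in 8, with a median ratio of 3.41. The summed RPKM of the list at 4 months was 278, 1406 and 356, highest in replicate 2 as in the first pattern.

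In fatty acid uptake and esterification, 6 of 12 genes rose and 1 fell, with a median log2 fold change of 0.83. Pck1, which supplies glycerol backbone in fat, was at 0.0150, 0.105 and 0.149 RPKM at PND2 and at 22.2, 66.2 and 38.0 RPKM at 4 months (log2 fold change 7.73, SE 0.45, limma adjusted p = 6.1e-05). Gpd1, the glycerol 3-phosphate dehydrogenase, rose from 2.49, 4.74 and 3.00 RPKM to 19.2, 76.3 and 29.3 RPKM (limma adjusted p = 0.0022), 12.2-fold in mean RPKM and 7.12-fold without 4 month replicate 2. The call of the gene that fell, Gpihbp1, was lost without PND2 replicate 3 or 4 month replicate 1. Cd36, a fatty acid transporter also made by capillaries and heart muscle, was the most abundant at 266, 174 and 221 RPKM at PND2 and 124, 289 and 169 RPKM at 4 months, and did not pass (limma adjusted p = 0.56). Replicate 2 was highest in 12 of 12 of these genes and at least 2-fold above the others in 4.

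Lipolysis, the release of fatty acids from droplets, had 6 of 11 genes higher and 0 lower, with a median of 1.22 on the log2 scale. Adrb3, the beta-3 adrenergic receptor of adipocytes, was at 0.337, 0.408 and 0.614 RPKM at PND2 and at 2.17, 13.1 and 4.51 RPKM at 4 months (log2 fold change 3.25, SE 0.60, limma adjusted p = 0.0059), with a log2 fold change of 2.58 without 4 month replicate 2. Lipe, the hormone-sensitive lipase, rose 3.50-fold in mean RPKM, Pnpla2, the first lipase of the cascade, 2.36-fold, and the monoglyceride lipase Mgll 2.81-fold. Their limma adjusted p were 0.0087, 0.0010 and 0.00017. Replicate 2 was highest in 11 of 11 genes of this list and at least 2-fold above the others in 4.

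The other lipid droplet proteins moved less, with 2 of 8 higher and 0 lower, beside 14.7% and 21.1% of all genes tested. Their median log2 fold change was 0.04, which was -0.05 to 0.13 with 1 library left out. Fitm2, an endoplasmic reticulum protein of droplet formation, rose 2.63-fold (limma adjusted p = 0.0010). Plin5, the perilipin of oxidative tissue, was at 1.92, 2.31 and 3.82 RPKM at PND2 and 3.53, 12.7 and 12.9 RPKM at 4 months (limma adjusted p = 0.042). That call was lost in 5 of the 6 fits that left out 1 library, with the exception of 4 month replicate 1. Plin2 and Plin3, which coat droplets in most cell types, had ratios of means of 1.04 and 1.03 and did not pass.

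Of the adipogenic transcription factors, 7 of 10 rose and 0 fell, with a median log2 fold change of 1.56. Cebpa was at 1.26, 2.03 and 2.24 RPKM at PND2 and 15.8, 30.0 and 20.0 RPKM at 4 months (log2 fold change 3.49, SE 0.29, limma adjusted p = 0.00025). Pparg, the master regulator of the fat cell, was at 1.87, 0.854 and 1.98 RPKM and then at 3.00, 12.0 and 3.38 RPKM, in the library order of Adipoq, and did not pass (limma adjusted p = 0.052). Klf15 and Nr1h3 rose 3.85-fold and 5.19-fold. Replicate 2 was highest in 4 of these 10 genes and at least 2-fold above the others in 1, Pparg, with a median ratio of 0.987.

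Insulin and glucose genes rose in 4 of 7 and fell in 1, with a median of 0.50. Slc2a4, the insulin-regulated glucose transporter, rose 2.45-fold, and Tusc5, which takes part in its trafficking in fat, 15.5-fold (limma adjusted p = 0.0018 and 0.0026). Without 4 month replicate 2 the ratio of Tusc5 was 10.1. The gene that fell, Insr, was called in 2 of the 6 fits that left out 1 library. Of 6 other adipokines tested, 3 rose and 1 fell, with a median of 0.88. Rbp4, the retinol carrier, was at 2.63, 1.36 and 2.16 RPKM at PND2 and at 124, 112 and 98.6 RPKM at 4 months (limma adjusted p = 2.1e-05), with no excess in replicate 2. Rarres2 (chemerin) rose 3.06-fold and Angptl4, an inhibitor of lipoprotein lipase, fell to 0.321 of its PND2 level (limma adjusted p = 0.00053 and 0.00043).

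**Figure D4:**
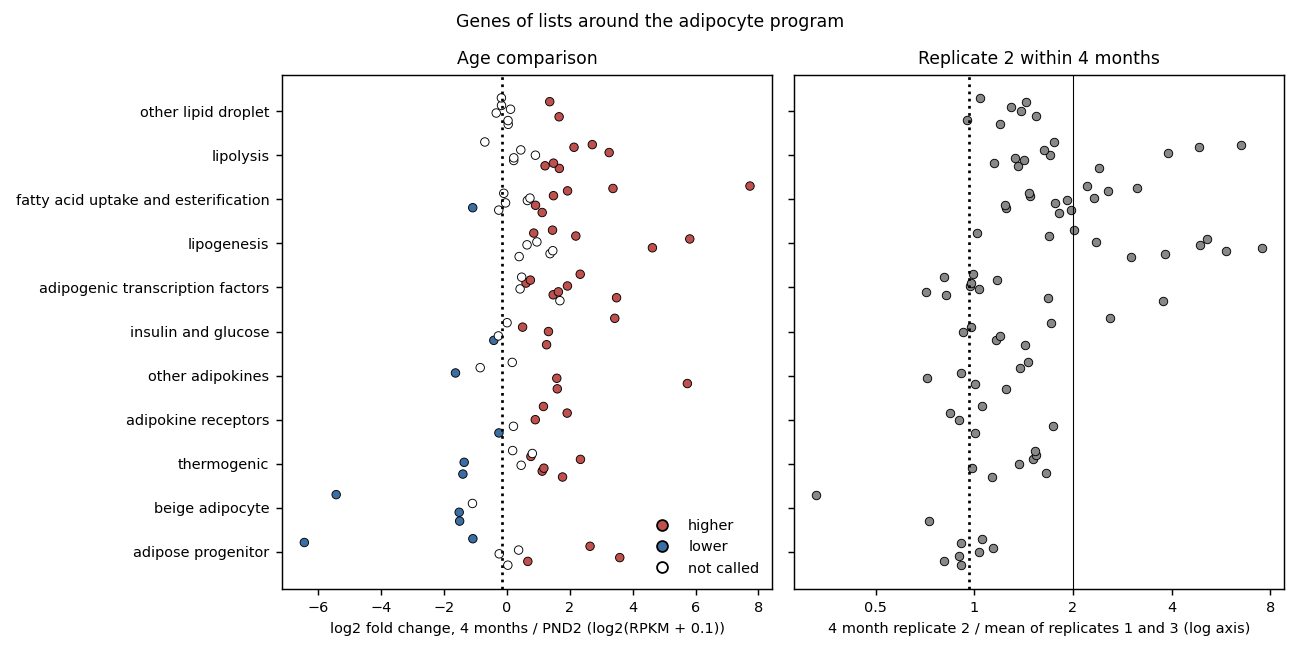
Genes of 11 lists. The left panel gives the log2 fold change of 4 months over PND2 on log2(RPKM + 0.1), coloured by the limma call, and the right panel the ratio of 4 month replicate 2 to the mean of replicates 1 and 3 (log axis) for genes with a mean of at least 1 RPKM at 4 months. Dotted lines are the medians over all genes (-0.14 and 0.960), and the solid line marks 2-fold. Lipogenesis, lipolysis and fatty acid uptake and esterification lie to the right in the right panel, whereas the receptor list lies around the median.

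The partners of the secreted members were read in the same fit, and the unequal-variance test per gene lost the calls of Lepr and Cfp among them. Of the receptors and binding proteins of adipokines, 3 of 5 rose and 1 fell, beside 14.7% and 21.1% of all genes tested. Lepr, the leptin receptor, rose 3.78-fold, Cdh13 (T-cadherin, which binds adiponectin) 1.88-fold and Cmklr1, a chemerin receptor, 2.24-fold. Their limma adjusted p were 0.0056, 0.00059 and 0.0018. The call of Adipor1 as lower (limma adjusted p = 0.044) was lost in each of the 6 fits that left out 1 library. Of the alternative complement genes, in which factor D acts, C3, Cfb, Cfp and C3ar1 are described here. Cfb, the substrate of factor D, was at 2.44, 2.17 and 1.28 RPKM at PND2 and at 26.9, 22.2 and 25.7 RPKM at 4 months (log2 fold change 3.64, SE 0.24, limma adjusted p = 9.5e-05). C3, the central component, rose 4.21-fold and Cfp, properdin, 1.72-fold (limma adjusted p = 5.1e-05 and 0.0075), whereas the receptor C3ar1 did not pass, with a ratio of means of 0.901. The replicate 2 ratio was 1.00 for C3, 0.844 for Cfb, 0.888 for Cfp and 0.940 for C3ar1, beside 4.90 for Cfd.

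Relatives of the 10 genes in the same families went both ways. Of 12, 11 were tested, 2 rose and 3 fell, beside 14.7% and 21.1% of all genes tested. Without 4 month replicate 2, 1 rose and 4 fell, beside 11.9% and 16.5%. The median log2 fold change was 0.04, which changed sign with 1 library left out (-0.14 to 0.08). The genes that rose with all libraries in the fit were Retnla and Plin5, the latter with the losses given above. Retnla, a resistin-like protein of macrophages, was at 0.0429, 0 and 0.0571 RPKM at PND2 and at 125, 115 and 76.6 RPKM at 4 months (limma adjusted p = 6.1e-06), without the replicate 2 excess of Retn. Fabp5 fell from 58.5, 46.6 and 45.5 RPKM to 6.70, 13.9 and 6.46 RPKM (limma adjusted p = 0.00080). Ucp2 fell to 0.630 of its PND2 mean (limma adjusted p = 0.0070). The unequal-variance test per gene called 1 relative, Retnla. Ucp3 was at 3.00, 3.56 and 7.13 RPKM at PND2 and 6.29, 10.4 and 7.39 RPKM at 4 months and did not pass.

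Of the thermogenic genes beside Ucp1 and Cidea, 10 of 12 were tested, 5 rose and 2 fell, beside 14.7% and 21.1% of all genes tested. The median log2 fold change was 0.79. Without PND2 replicate 1, 4 month replicate 2 or 4 month replicate 3, 3 rose. The unequal-variance test per gene called 1, Dio2, where 5.66% of all genes tested were higher. Dio2, which activates thyroid hormone, rose from 2.78, 3.78 and 3.92 RPKM to 10.4, 13.1 and 12.8 RPKM (limma adjusted p = 0.00054). Prdm16, a regulator of brown fat fate, was at 4.37, 7.28 and 7.49 RPKM and then at 16.1, 13.6 and 11.6 RPKM (limma adjusted p = 0.0093). Ppargc1a, the coactivator of mitochondrial genes, fell to 0.389 of its PND2 mean (limma adjusted p = 0.0025). The brown fat genes Elovl3 and Lhx8 were near 0 in every library and were not tested, and Zic1 and Slc27a2 averaged at most 0.224 RPKM at either age. Of 4 beige fat genes tested, 0 rose and 3 fell, beside the same 14.7% and 21.1%. Cited1 went from 7.05, 9.15 and 8.59 RPKM to 0.168, 0.0718 and 0.0591 RPKM (limma adjusted p = 4.5e-05). The call of Tnfrsf9, another of the 3, was lost in 5 of the 6 fits that left out 1 library. The unequal-variance test kept the call of Cited1 alone, where 7.50% of all genes tested were lower.

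Several thermogenic genes are also genes of heart muscle, and these had their lowest 4 month value in replicate 1. Cox7a1, a muscle form of a cytochrome c oxidase subunit, was at 198, 433 and 433 RPKM at 4 months, Cox8b at 112, 282 and 261 RPKM, and Cpt1b, which brings fatty acids into mitochondria, at 44.1, 89.8 and 72.0 RPKM. The call of Cox7a1 as higher (limma adjusted p = 0.020) was lost in 4 of 6 fits that left out 1 library, among them 4 month replicate 2. The same held for the potassium channel gene Kcnk3 (limma adjusted p = 0.038). Cpt1b was called lower with age by limma, also in each of the 6 fits that left out 1 library. The unequal-variance test per gene did not call it. The cardiomyocyte list had 0 of 14 genes higher and 7 lower (1 by the unequal-variance test per gene). Over all genes tested, 21.1% were lower (7.50% by that test). The list summed to 20075, 20922 and 22916 RPKM at PND2 and to 7818, 12455 and 8260 RPKM at 4 months. Its most abundant gene was Actc1, and Myl2, a ventricular light chain, was at 278, 1881 and 1203 RPKM at 4 months. The order was not shared by the whole list, since Myl7 (1639, 866 and 576 RPKM), Myl4 (273, 145 and 97.6 RPKM) and Nppa (874, 502 and 40.7 RPKM) were highest in replicate 1. Of this list 10 of 13 genes with at least 1 RPKM were highest in replicate 2, and 1 was at least 2-fold above the others. The part of heart muscle in these values was not tested.

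Markers of other cell types that a dissected valve can hold were read from fixed lists, which leave out muscle genes such as Myot, described below. These lists held no gene with at least 1 RPKM at 4 months that stood 2-fold above the others in replicate 2, apart from Myl2 among the cardiomyocyte genes. Over all genes of that level the share was 1.57%, and the B cell list had 0 genes of that level. Mesothelial genes (8, led by Msln) summed to 231, 159 and 160 RPKM at 4 months, smooth muscle genes (6, led by Acta2) to 27581, 16638 and 19948 RPKM, fibroblast and valve interstitial genes (7, led by Dcn) to 9175, 7993 and 10099 RPKM and Schwann cell genes (6, led by S100b) to 51.7, 44.1 and 49.4 RPKM. The T cell list of 6 genes, led by Lck, summed to 2.85, 3.32 and 3.48 RPKM at 4 months. The 6 B cell genes, led by Cd79b, summed to 0.561, 4.51 and 0.838 RPKM, thus also highest in replicate 2 but from low levels. With age, 1 of 8 mesothelial genes fell (2 without 4 month replicate 1), 5 of 6 smooth muscle genes rose, 2 of 7 fibroblast genes rose and 4 fell, 2 of 6 Schwann cell genes rose (1 without 4 month replicate 1), 3 of 6 T cell genes rose and 1 fell, and 0 of 4 B cell genes tested were called. By the unequal-variance test per gene 0 mesothelial genes were called, 3 smooth muscle genes rose, 1 fibroblast gene rose and 1 fell, and 1 Schwann cell and 1 T cell gene rose. Over all genes tested, 14.7% rose and 21.1% fell by limma, and 5.66% and 7.50% by the test per gene. The part of any of these cell types in the levels of the 10 genes was not tested.

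Genes of adipose progenitors were mixed, with 3 of 8 higher (1 by the unequal-variance test per gene, with the call of Ly6a lost) and 2 lower. The limma shares over all genes tested were 14.7% and 21.1%. The median log2 fold change of the list was 0.21. Dlk1, which preadipocytes lose as they mature, fell from 30.5, 28.6 and 45.6 RPKM to 0.435, 0.171 and 0.330 RPKM (limma adjusted p = 3.2e-05). Pi16 and Ly6a, surface markers of adventitial and fat stromal cells, rose 6.28-fold and 10.8-fold (limma adjusted p = 1.5e-05 and 0.00062). Without PND2 replicate 1 the ratio of Ly6a was 16.9, and the median of the list ran from 0.08 to 0.35 with 1 library left out. In none of the 7 progenitor genes of at least 1 RPKM did replicate 2 exceed the others 2-fold.

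Genes outside the 10 were ranked by how closely their profile over the 6 libraries matched the mean profile of the 9 genes with at least 5 RPKM at 4 months, by Euclidean distance of centred log2(RPKM + 0.1) values among 13952 candidates. The median distance of the candidates was 7.02. The nearest was Lgals12, a galectin of lipid droplets, at a distance of 1.08, with 2.33, 11.5 and 2.84 RPKM at 4 months. Adig (adipogenin, a small fat cell protein) followed at 1.15, with 4.63, 23.3 and 7.98 RPKM, and then Thrsp at 1.18. Ckmt2, Myot and Art1, which are known from striated muscle, came at 1.22, 1.29 and 1.36. Ckmt2 was at 155, 350.1 and 295 RPKM at 4 months and Art1 at 21.1, 33.0 and 28.4 RPKM, with replicate 2 ratios of 1.56 and 1.33. Myot, at 1.89, 18.8 and 6.77 RPKM, had a ratio of 4.35, above the 3.57 of Adipoq. Orm1, an acute-phase glycoprotein, was at 2.56, 19.7 and 2.50 RPKM, a 7.79-fold replicate 2 excess close to that of Retn. The other nearest genes were Ifi27l2a at 1.36, 1700119I11Rik, which overlaps Ckmt2, at 1.42, and Itih2 at 1.46. The mean profile blends the 4 patterns, and 9 of the 10 genes lay farther from it than each of these 10 outside genes. Lep was at a distance of 1.22, Retn at 1.82, Plin1 at 2.30, Adipoq at 3.40, Cidec at 3.51, Plin4 at 3.94 and Ucp1 at 4.37. Cidea was at 5.77, Fabp4 at 6.84 and Cfd, with its steeper difference between ages, at 7.50.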

How the data were processed

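RNA of pooled aortic valves was sequenced in 6 libraries, taken as independent, and p-values measure the spread between pools. The authors made the RPKM values, for genes and for exons, by trimming, alignment with TopHat 2.1.0 (mm10) and easyRNASeq counting over Ensembl models. Reads were recovered from RPKM, exonic length and library total (100% of values whole within 0.01). Reads on genes exceed the totals (90673545 against 38994657 in PND2 replicate 1) by 2.31 to 2.36 times over the libraries. The sequencing was paired-end, and this is more than totals of pairs alone would give, so reads can be counted more than once. What the totals count is not given in the sources used here. Printed reads are then not independent molecules, and intervals cover counting error only and may be too narrow.

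The genes, lists and tests were chosen with earlier results of these data known. limma 3.58.1 (R 4.3.3) was run on log2(RPKM + 0.1), using eBayes with its trend option, for genes of at least 0.1 RPKM in 3 libraries, and the steps were tested on simulated data. Named genes are the 10, genes of the lists, and the 10 nearest profiles, and 1 list gene is not reported here. With 3 libraries per age, no exact test of a single value was made. Alternatives were pseudocounts 1 and 0.01, other filters, no trend, an unequal-variance test per gene on the same values, voom, median scaling, a replicate block and each library left out. Tables and figures used Python 3.11.15, matplotlib 3.10.9, scipy 1.17.1, pandas 2.3.3 and numpy 2.4.6.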

Additional observations from a re-analysis of the deposited data

How the results depend on the processing

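Of the genes tested, 9273 were called between the ages, with 36 of the other adipocyte genes and 10 of the thermogenic and beige genes. Testing each gene alone with unequal variances called 3408, 11 and 2, and the cause was not tested. Without a filter on low values, 6 thermogenic and beige genes were called, with more genes tested. Leaving out 1 library at a time gave 6447 to 8688, 29 to 38 and 7 to 11 calls. With replicate numbers as a block the counts were 7167, 33 and 9, and same-numbered libraries did not deviate together (correlations of 0.04, -0.06 and -0.16), so the numbers were not taken as pairs. Median scaling turned the split of calls from 41.1% to 52.3% higher at 4 months. The other alternatives stayed within 1.5 times of these counts. The median log2 difference of the 10 genes was 5.53, against 2.92 with a pseudocount of 1, 8.47 with 0.01, and 4.76 to 6.54 with 1 library left out, highest without 4 month replicate 1. Of 90 values for single genes of the 10, 79 moved by less than the spread between libraries and 11 by more, all of these with another pseudocount. Depth limits Lep, Retn, Cidec, Cfd and Ucp1 at PND2, where 0 to 4 reads were counted per gene over the 3 libraries.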
